A study of Mus musculus with 36 samples.

Results

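Sprr1a, Ecel1, Sox11, Atf3, Gap43, Gal and Jun are 7 genes that neurons switch on, or keep on, when an axon is cut and a regrowth programme starts. They were taken by symbol from the 55487 genes of the deposited count table, and 7 of 7 were found. Several of them were chosen by their rise in the retina after crush, so the values from that contrast are given here as a description, with no test.

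The data are bulk RNA-seq of 36 libraries from C57BL/6 mice with no engineered allele named, 12 each from whole retina, unmyelinated optic nerve (UON, the nerve head segment) and myelinated optic nerve (MON). Beside naïve mice there were 2 injury models. Unilateral optic nerve crush was sampled 3 D and 2 W later, and unilateral microbead injection into the anterior chamber, a model of raised eye pressure called glaucoma in the labels, 3 D, 2 W and 6 W later. The mice were 2 to 4 months old. Each group of each tissue has n = 2 libraries, 1 from a pool of 2 females and 1 from a pool of 2 males, so that sex and pool cannot be told apart and the spread is between pools. Library totals ran from 16.2 to 78.1 M estimated counts. Summed photoreceptor markers were 42153 to 53110 CPM (counts scaled to library size) in the retina and 7.72 to 294 CPM in the nerve, and summed mature oligodendrocyte markers were 47367 to 167544 CPM in MON, against 3644 to 44795 CPM in UON. Retinal ganglion cell (RGC) markers, 12 genes, summed to 1308 and 1206 CPM in the naïve retina, 702 and 766 CPM at 3 D and 227 and 203 CPM at 2 W after crush. In bulk tissue, fewer cells of a type and less RNA per cell cannot be told apart.

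The axons of the optic nerve belong to RGCs, whose cell bodies lie in the retina. Nerve tissue holds these axons with astrocytes, oligodendrocytes, microglia and other cells, which transcribe genes of their own. After axon injury, stress kinase signalling reaches the nucleus and activates the transcription factors Jun and Atf3, which bind DNA as dimers, and Sox11, a developmental factor of the SoxC group, is re-expressed. Their programme includes effectors of axon growth such as Sprr1a and Gap43, the neuropeptide galanin encoded by Gal, and Ecel1, a membrane endopeptidase-like protein of injured neurons also known as DINE. Several of these genes are not limited to neurons: Jun and Atf3 respond to stress in glia and other cells, and Sprr1a also encodes a cornified envelope protein of squamous epithelium.

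All 7 genes lie on the minus strand of GRCm38. Sprr1a (ENSMUSG00000050359) spans chromosome 3, 92483952 to 92485895; Ecel1 (ENSMUSG00000026247) spans chromosome 1, 87147655 to 87156521. Atf3 (ENSMUSG00000026628) lies on the same chromosome at 191170296 to 191218039, and Jun (ENSMUSG00000052684) on chromosome 4 at 95049034 to 95052222. Sox11 (ENSMUSG00000063632) lies on chromosome 12 at 27334264 to 27342574, Gap43 (ENSMUSG00000047261) on chromosome 16 at 42248442 to 42340651, and Gal (ENSMUSG00000024907) on chromosome 19 at 3409915 to 3414544. Jun overlaps Junos on the opposite strand. The strandedness of the libraries was not given in the sources used here, so reads of these 2 genes cannot be told apart where they overlap.

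The stretch before a RefSeq start site is shown for the 4 genes with the largest change in the retina after crush, because they moved together there. The Atf3 stretch lies within the gene span given above, so it precedes a start site inside the gene. The Sox11 stretch does not adjoin the end of its span. Which start sites were used in these libraries was not tested. The sequences are from RefSeq start sites on GRCm38.p6, which matched 6 of the 7 genes (not Gap43), read in the direction of transcription, and bases that the annotation places in an exon of the gene were left off the 3′ end. Capitals mark matches on either strand to the AP-1 element TGACTCA, the cyclic AMP element TGACGTCA, the C/EBP-ATF element TGATGNAA or the SOX core ACAAAG. Sprr1a covers chr3:92485896-92486131, Ecel1 chr1:87156522-87156606, Atf3 chr1:191183341-191183583 and Sox11 chr12:27342719-27342968, all on the minus strand.
Sprr1a: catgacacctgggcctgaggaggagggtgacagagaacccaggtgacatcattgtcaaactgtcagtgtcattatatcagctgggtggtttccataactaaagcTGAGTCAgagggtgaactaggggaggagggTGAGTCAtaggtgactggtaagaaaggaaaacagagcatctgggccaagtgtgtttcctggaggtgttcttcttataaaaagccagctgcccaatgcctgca
Ecel1: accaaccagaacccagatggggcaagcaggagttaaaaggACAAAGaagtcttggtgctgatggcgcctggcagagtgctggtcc
Atf3: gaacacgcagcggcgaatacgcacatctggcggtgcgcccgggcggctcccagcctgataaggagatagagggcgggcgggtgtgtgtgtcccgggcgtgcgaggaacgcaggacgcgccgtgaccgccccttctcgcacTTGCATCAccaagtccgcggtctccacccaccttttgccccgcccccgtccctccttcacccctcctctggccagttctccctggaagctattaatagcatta
Sox11: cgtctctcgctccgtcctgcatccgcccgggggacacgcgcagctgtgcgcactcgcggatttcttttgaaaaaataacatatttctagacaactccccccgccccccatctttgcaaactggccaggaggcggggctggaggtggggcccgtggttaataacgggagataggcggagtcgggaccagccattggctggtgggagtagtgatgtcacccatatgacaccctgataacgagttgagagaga

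In windows of 300 bases (250 before and 50 after the start), TGACTCA occurred in 5.2% of 32851 promoters, TGACGTCA in 1.79%, TGATGNAA in 3.97% and ACAAAG in 18.7%. Sprr1a held the AP-1 letters at 2 places, starting at -146 and -116 from the start site, both as TGAGTCA. Atf3 held the C/EBP-ATF letters at -110 as TTGCATCA, its reverse complement, and Ecel1 held ACAAAG at -210. None of the 4 motifs was found in the windows of Sox11, Jun or Gal. A match is a description of letters, not a site shown to be bound.

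In the retina after crush, Sprr1a, Ecel1, Sox11 and Atf3 were higher at 3 D and, less so, at 2 W, whereas Gap43, Gal and Jun stayed within a narrow range at 3 D. All 7 genes were above both naïve libraries in both 3 D libraries, an arrangement met by 18% of the 22671 genes tested. At 2 W it held for 5 genes, where it held for 23.2% of all genes, and Gap43 and Gal lay below both naïve libraries, as did 17.9%. The genes with a log2 fold change beyond 1 were Sprr1a, Ecel1, Sox11 and Atf3 at both times and Gal, lower, at 2 W, which makes 9 of 14 values. Of all genes tested, 14% were beyond 1 at 3 D and 15.1% at 2 W, while 0.0221% and 0.313% passed edgeR's quasi-likelihood test (adjusted p under 0.05 and log2 beyond 1, the limits used throughout for a call). Since the contrast chose the genes, nothing is read from these counts.

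**Figure D1:**
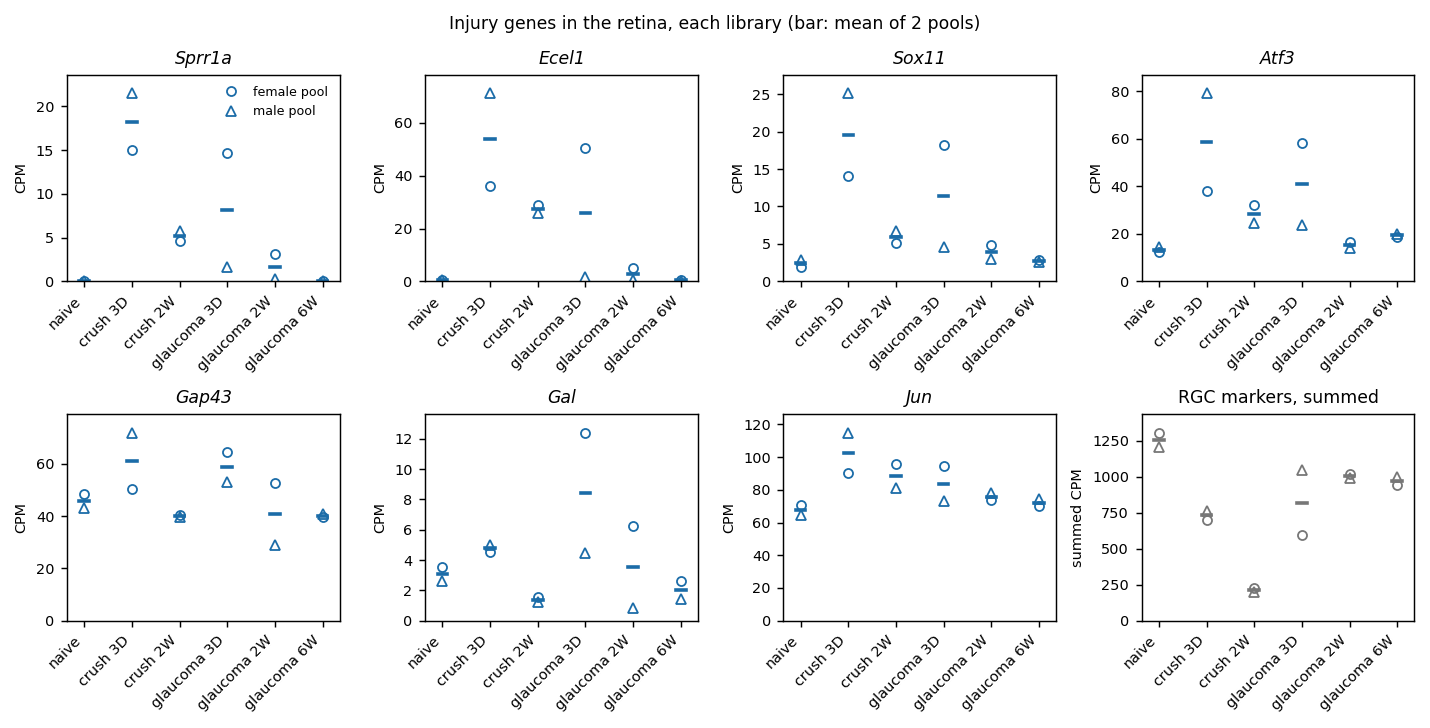
Level of each gene in the 12 retina libraries, in CPM (y axis) by group (x axis), with circles for female pools, triangles for male pools and a bar for their mean; the last panel sums 12 RGC markers. Sprr1a, Ecel1, Sox11 and Atf3 are highest at 3 D after crush and in the female pool at 3 D of glaucoma, while the RGC markers are lowest at 2 W after crush.

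Sprr1a, a small proline-rich protein that marks growing axons of injured neurons, had 0 counts in both naïve retina libraries. At 3 D after crush it reached 15 CPM in the female and 21.5 CPM in the male pool, and at 2 W 4.66 and 5.79 CPM. Against a floor of 12 estimated counts per naïve library (3 read pairs, 0.233 to 0.265 CPM), the mean level was at least 73.2-fold higher at 3 D and at least 21-fold higher at 2 W, a bound that covers counting error only. The groups did not overlap at either time.

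Ecel1 was at 0.485 and 0.663 CPM in the naïve retina, from 25 and 30 counts, and was at 36.2 and 71.1 CPM at 3 D, with 1463 and 3476 counts. At 2 W it was at 28.7 and 25.8 CPM. The log2 fold change was 6.52 ± 0.34 (SE) at 3 D and 5.57 ± 0.33 at 2 W. Ecel1 therefore kept more of its 3 D level at 2 W than Sprr1a did: the 3 D mean was 1.97 times the 2 W mean for Ecel1 and 3.49 times for Sprr1a. That difference was not tested.

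The Ecel1 counts were spread over several transcript models. Of the 4939 counts at 3 D after crush, 75.4% went to ENSMUST00000160810 and 24.1% to ENSMUST00000027463, both protein coding. These models held 41.8% and 32.7% of 2980 counts at 2 W after crush, where ENSMUST00000161002, also protein coding, held 25.4%. At 3 D of glaucoma the first 2 models held 49.9% and 29.9% of 1396 counts and ENSMUST00000161002 19.3%, whereas at 2 W of glaucoma ENSMUST00000161002 held 70.5% of 241 counts. Of the 55 naïve counts, 34 went to ENSMUST00000161002 and 19 to ENSMUST00000162015, a retained intron model. The naïve total is too small to give a makeup, and StringTie's split among models of 1 gene is an estimate.

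Among the transcription factors, Sox11 was at 1.96 and 2.87 CPM in the naïve retina, 14.1 and 25.1 CPM at 3 D and 5.13 and 6.76 CPM at 2 W. Its log2 fold change was 3.01 ± 0.24 and then 1.28 ± 0.23. Atf3 was at 12.3 and 14.4 CPM in the naïve retina, 38.2 and 79.1 CPM at 3 D and 32.2 and 24.4 CPM at 2 W, with log2 fold changes of 2.11 ± 0.31 and 1.07 ± 0.31. Both genes were higher in each crush library than in either naïve library. The Atf3 value at 2 W depended on the pool: without the female crush library it was 0.52, and without the male one 1.53.

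Jun, the AP-1 subunit that Atf3 can pair with, had a high level before injury, 70.5 and 64.5 CPM. It was at 90.6 and 115 CPM at 3 D and at 95.9 and 81.3 CPM at 2 W. The log2 fold changes were 0.63 ± 0.15 and 0.36 ± 0.15, so Jun changed by the smallest steps among the 3 factors. Junos, its antisense neighbour, stayed at 0.199 to 0.791 CPM in the naïve and crush retina libraries.

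Gap43, a membrane protein of growth cones, was at 48.5 and 43.1 CPM in naïve retina, 50.5 and 72 CPM at 3 D and 40.3 and 39.7 CPM at 2 W. The 3 D value of the female pool was close to its naïve value, and the log2 fold change was 0.42 ± 0.17 at 3 D and -0.23 ± 0.17 at 2 W. Gal was at 3.55 and 2.63 CPM in naïve retina, 4.55 and 4.99 CPM at 3 D and 1.54 and 1.24 CPM at 2 W. Its log2 fold change went from 0.66 ± 0.32 at 3 D to -1.18 ± 0.33 at 2 W. The 2 W libraries, in which Gap43 and Gal lay lowest against naïve, also held the lowest RGC marker sums, and the part of RGC number in these levels was not tested.

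Levels can be compared between genes only per length, in the deposited FPKM (read fragments scaled to transcript length and library size; means ± SD, n = 2). In naïve retina the order was Gap43 at 33.8 ± 2.11, Jun at 22.1 ± 1, Atf3 at 7.04 ± 0.908, Gal at 4.07 ± 0.785, Ecel1 at 0.506 ± 0.492, Sox11 at 0.303 ± 0.0879 and Sprr1a listed at 0. Ecel1 and Sox11 were the neighbours in that order that did not differ beyond their spread. At 3 D after crush the order was Gap43 at 48 ± 11.1, Jun at 35.8 ± 5.5, Atf3 at 32.7 ± 15.7, Sprr1a at 25 ± 5.91, Ecel1 at 21.4 ± 9.54, Gal at 6.79 ± 0.364 and Sox11 at 2.61 ± 0.986. Sprr1a, which was listed at 0 before injury, then stood above Gal and Sox11, while the first 5 genes of the order overlapped with their neighbours.

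Over the 12 retina libraries, the genes whose log2 CPM followed these 7 most closely were found among 16379 genes by Pearson's r, as a description, since the libraries share groups and pools. Sprr1a and Ecel1 were each other's closest gene (r = 0.951), and the next for both was Fosl1, another AP-1 subunit (0.947 and 0.942). Sox11 was closest to Pter (0.968) and then to Atf3 (0.94). Atf3 was closest to Tnfrsf12a, the receptor Fn14 (0.949), and to Pter (0.943). Gap43 was closest to Klf6, a growth-promoting zinc finger factor (0.966), and to S100a10 (0.94), Gal to S100a10 (0.934) and Rbm41 (0.93), and Jun to Ifit2 and Tes (0.911 each).

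Other genes of the regeneration programme were described in 5 lists. The lists were chosen with earlier results of these data known, so their counts, here and below, are a description and not support for a programme. At 3 D, edgeR called 0 of the 62 list genes tested, 16 of them had an unadjusted p under 0.05 (6.34% of all genes), and DESeq2, run as an alternative, called 7 higher and 1 lower (0.336% of the genes it fitted). At 2 W, 21 of 62 had an unadjusted p under 0.05 (8.99% of all genes). DESeq2 called 2 higher and 5 lower (0.867%), and edgeR called 4 of 62 (0.313% of all genes). Among them was 1 of 15 other transcription factors, Cebpd, which was higher (log2 1.34 ± 0.17, adjusted p = 0.0441). Of 14 growth cone and cytoskeleton genes it called 3, all lower: Nrn1, encoding neuritin (-3.71 ± 0.36, adjusted p = 0.0202), the neuronal tubulin Tubb3 (-1.23 ± 0.12, adjusted p = 0.0202) and the microtubule regulator Stmn2 (-1.07 ± 0.14, adjusted p = 0.0475). The RGC marker sums were also lowest in the 2 W libraries, and their part in these 3 lower values was not tested. None of the 8 neuropeptides and galanin receptors, 17 secreted, adhesion and stress genes and 8 relatives of the 7 genes was called by edgeR. The medians of the 5 lists were between -0.49 and 0.42 at 2 W, beside 0.01 for all genes. Of the other Sprr genes, Sprr1b had at most 0.0742 CPM and Sprr3 at most 0.124 CPM in the retina libraries.

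The question of the second retinal comparison was whether bead injection, the model of raised eye pressure, brought up the same genes. Its tests share the naïve retina libraries with the crush contrast that chose the genes. At 3 D of glaucoma all 7 genes were above both naïve libraries in both pools, an arrangement met by 18% of all genes, but the 2 pools were far apart. At 2 W it held for Sprr1a, Ecel1, Sox11 and Jun, beside 21.2% of all genes. EdgeR called 0 of 21 tests of a gene at a time, beside 0.00429% of all such tests. At an unadjusted p under 0.05 there were 5 of 21 (6.01% of all): Ecel1, Atf3, Sox11 and Sprr1a at 3 D and Sprr1a at 2 W. DESeq2 called 3 of 21, Atf3, Sox11 and Sprr1a at 3 D, beside 0.318% of the genes it fitted.

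At 3 D, Ecel1 was at 50.3 CPM in the female and 1.72 CPM in the male pool, Sprr1a at 14.7 and 1.65 CPM, and Sox11 at 18.2 and 4.6 CPM. Atf3 was at 58.1 and 23.7 CPM and Gal at 12.4 and 4.46 CPM. Sprr1a, Ecel1, Sox11 and Atf3 in the female pool thus lay close to or within the levels seen at 3 D after crush, and in the male pool nearer to naïve. Gal in the female pool was above both 3 D crush libraries (4.55 and 4.99 CPM), and in the male pool just below them. The ratio of female to male was 29.2 for Ecel1, 8.93 for Sprr1a, 3.95 for Sox11, 2.78 for Gal and 2.46 for Atf3. Gap43 (64.4 and 53.2 CPM) and Jun (94.4 and 72.9 CPM) differed less, with ratios of 1.21 and 1.29.

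The fitted log2 fold changes at 3 D carried wide errors: Ecel1 4.20 ± 1.24, Sox11 2.03 ± 0.61, Atf3 1.55 ± 0.39 and Gal 1.21 ± 0.56, with edgeR's adjusted p at 0.663, 0.677, 0.59 and 0.842. Sprr1a was at least 32.9-fold above the naïve floor in the mean, which rests mainly on the female pool. The lower library, the male pool, was 6.22 times the higher naïve floor. Sprr1a had an adjusted p of 0.0977 by edgeR. It was called at 3 D when either 6 W library, or the male naïve library, was left out (adjusted p = 0.0127, 0.0141 and 0.0466), and at 2 W when either 6 W library was (0.0464 and 0.0377). Without the male 3 D library the log2 fold changes were 5.71 for Ecel1, 2.91 for Sox11 and 2.19 for Atf3, and without the female one 2.00, 0.91 and 0.76, with no call in either case. Ecel1 was also at 2.33 without the female naïve library and at 6.18 without the male one. The RGC marker sum was 596 CPM in the female pool and 1046 CPM in the male pool at 3 D, and the female library held 19.9 M counts against 46.9 M. The part of these in the difference was not tested. The study gives its pressure readings per group and not per pool. In the 3 D mice the mean excess in the injected eye was clear the day after injection. At 3 D it was small beside its spread, and its part in the difference was not tested.

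At 2 W of glaucoma the female pool was again the higher one for Sprr1a (3.1 and 0.235 CPM), Ecel1 (5.13 and 0.667 CPM), Sox11 (4.86 and 2.96 CPM) and Gal (6.27 and 0.863 CPM). The 2 W pools come from other mice than the 3 D pools, and with 1 pool of each sex a difference between the sexes cannot be tested. At 6 W Sprr1a had 0 counts in both pools, and Ecel1 (0.624 and 0.266 CPM) and Sox11 (2.8 and 2.6 CPM) lay at naïve levels. Atf3, at 16.5 and 14.1 CPM at 2 W, was at 18.8 and 19.9 CPM at 6 W, above both naïve libraries, with a log2 fold change of 0.54 ± 0.38 (adjusted p = 0.876). Jun (70.3 to 77.9 CPM) and Gap43 (29.1 to 52.7 CPM) at 2 W and 6 W had log2 fold changes of at most 0.16 and of -0.21 and -0.17, none called. Of the regeneration lists, edgeR called no gene in the retina at any time of glaucoma. Of 183 such tests, 26 had an unadjusted p under 0.05 (6.01% of all), and DESeq2 called 5 higher and 2 lower (0.318% of the genes it fitted).

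In the nerve the 7 genes had another order of levels, and 1 of them passed the test after crush. Naïve UON and MON were compared first, with 6 genes tested, since Sprr1a had 0 counts in all 4 libraries. Ecel1 and Gap43 were called, in opposite directions, and Jun had an unadjusted p under 0.05 only. The 2 calls of 6 stand beside 9.63% of all genes called, 24.6% at an unadjusted p under 0.05 (3 of 6 here), and 8.78% called by DESeq2, which called the same 2 genes here.

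Ecel1 was at 60.5 and 66 CPM in naïve UON but at 1.31 and 0 CPM in naïve MON (log2 6.45 ± 0.93, edgeR's adjusted p = 0.00698). The UON level without injury was thus close to that of the retina at 3 D after crush. Ecel1 in the naïve retina was at 0.485 and 0.663 CPM, and which cells of UON hold its RNA was not tested. Its counts in naïve UON fell mainly on ENSMUST00000160810 (69.8%) and ENSMUST00000027463 (23.2%), the models that led in the retina at both times after crush and at 3 D of glaucoma. Gap43 was lower in UON, at 16.8 and 18.7 CPM, than in MON, at 53.2 and 57.4 CPM (-1.68 ± 0.22, adjusted p = 0.00502). Jun was at 514 and 531 CPM in UON and 377 and 202 CPM in MON (0.87 ± 0.27, adjusted p = 0.0953), levels that lie above those of the naïve retina. Atf3 differed between the 2 naïve UON pools, at 15.5 and 45.9 CPM, and lay at 18 and 15.3 CPM in MON. Among the other growth cone genes, 4 of 14 were lower in UON, among them Tubb3 (-2.66 ± 0.21, adjusted p = 0.00141) and Basp1 (-2.11 ± 0.51, adjusted p = 0.045), and Dpysl3 was higher (1.07 ± 0.21, adjusted p = 0.0205). Of 18 secreted, adhesion and stress genes, 4 were higher, led by Lgals1 (2.58 ± 0.35, adjusted p = 0.00597) and Chl1 (2.49 ± 0.26, adjusted p = 0.00243). Tac1 and Cck, of 7 neuropeptides and receptors tested, were lower in UON (-3.20 ± 0.60 and -2.33 ± 0.50, adjusted p = 0.0189 and 0.031).

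**Figure D2:**
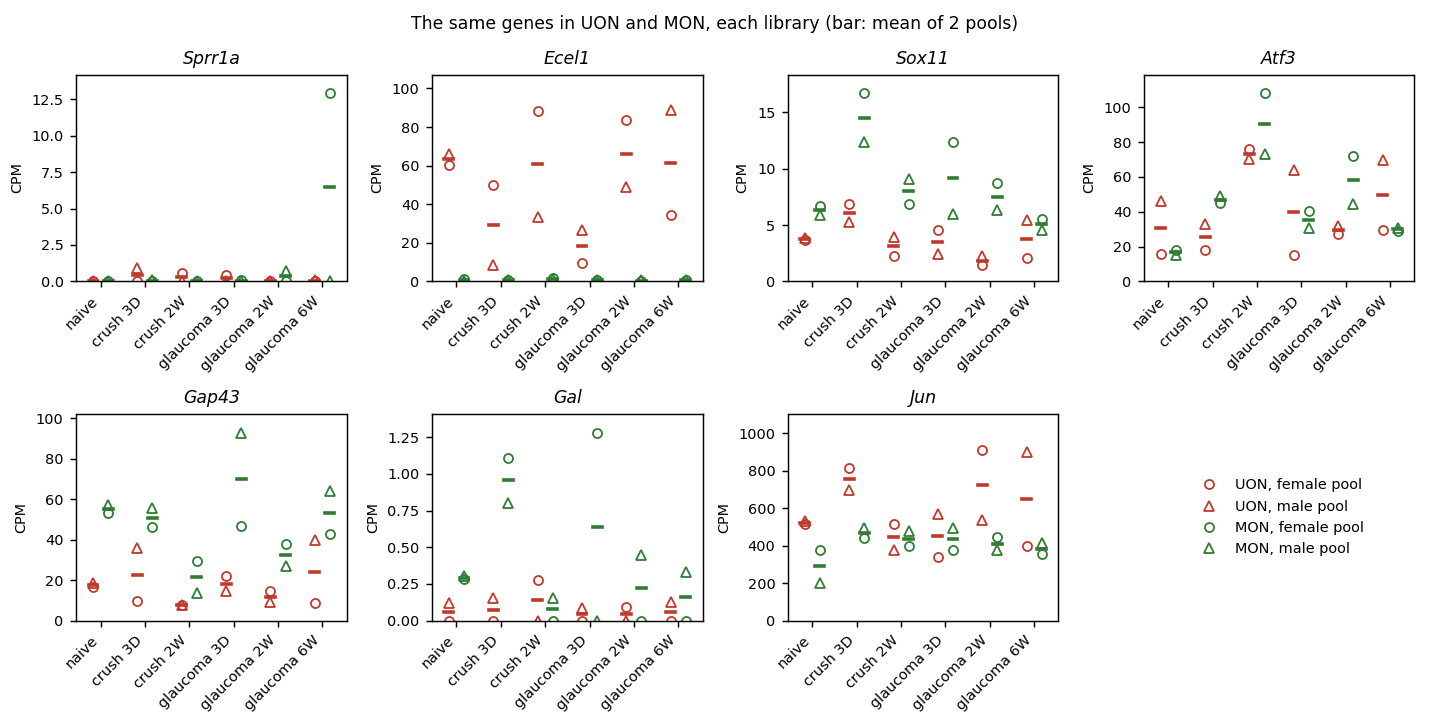
Level of each gene in the 24 nerve libraries, in CPM (y axis) by group (x axis), with UON in red and MON in green, circles for female and triangles for male pools, and a bar for the mean of 2 pools. Ecel1 is high in UON and near 0 in MON in every group, Atf3 is higher in MON after crush, and Sprr1a is near 0 except in 1 MON library at 6 W of glaucoma.

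After crush, MON was the nerve segment in which members were called: 2 of 12 tests, both Atf3, beside 3.49% of all tests. The background was 4.26% of 19988 genes at 3 D and 2.72% at 2 W. Atf3 was at 18 and 15.3 CPM in naïve MON, 44.8 and 49.1 CPM at 3 D and 108 and 72.9 CPM at 2 W, so that the 3 groups did not overlap. The log2 fold change was 1.59 ± 0.28 (adjusted p = 0.0273) at 3 D and 2.47 ± 0.29 (adjusted p = 0.0153) at 2 W. Whereas the retinal Atf3 level was lower at 2 W than at 3 D, the MON level was higher at 2 W; that difference was not tested. The 10 microglia and macrophage markers summed to 1466 and 1582 CPM in naïve MON, 3583 and 4562 CPM at 3 D and 7821 and 4390 CPM at 2 W, with the female 2 W library the highest in both these markers and Atf3, and their part in the Atf3 level was not tested. Both calls were lost when either naïve library was left out (adjusted p = 0.151 and 0.155 at 3 D, 0.132 and 0.0725 at 2 W), and the 3 D call also without the male 3 D library (0.117), with log2 values of 1.31 to 1.60 and of 2.45 and 2.50. The naïve MON libraries held 78.1 M and 17.8 M counts.

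Sox11 in MON was at 6.72 and 5.89 CPM in naïve, 16.7 and 12.4 CPM at 3 D and 6.87 and 9.13 CPM at 2 W. The 3 D log2 fold change of 1.29 ± 0.41 was not called (adjusted p = 0.13), except when the female 2 W crush library was left out (adjusted p = 0.046). Jun in MON was at 439 and 492 CPM at 3 D and 400 and 476 CPM at 2 W (0.80 ± 0.36 and 0.67 ± 0.36, adjusted p = 0.257 and 0.436). Gap43 was at 46.3 and 55.5 CPM at 3 D, near naïve, and at 29.7 and 13.8 CPM at 2 W (-1.36 ± 0.38, adjusted p = 0.123). DESeq2 called the Gap43 value at 2 W, with 3 calls in 14 tests beside 5.21% of the genes it fitted, and edgeR gave 4 of 12 at an unadjusted p under 0.05 beside 18.5%. The Gap43 value at 2 W was also called without the low count filter (adjusted p = 0.0118) and without the female 2 W library or either 3 D library (0.00104, 0.0104 and 0.0106). RGC markers, which in the nerve can come from RNA in axons, summed to 207 and 143 CPM in naïve MON, 117 and 67.4 CPM at 3 D and 27.9 and 23.5 CPM at 2 W, and their part in the Gap43 level was not tested. Gal, at 5 and 18 counts in naïve MON, was too low to compare there, although 4 of the 7 genes, Sox11, Atf3, Gal and Jun, lay above both naïve libraries at 3 D, beside 24.8% of all genes.

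Of the regeneration lists in MON after crush, the secreted, adhesion and stress genes had the most calls. Of 17 tested, 8 were higher at 3 D (4.26% of all genes were called) and 4 at 2 W (2.72%), with list medians of 1.34 and 1.21 beside -0.00 and 0.05 for all genes. The part of the microglia and macrophage markers, whose sum was above naïve in each of these libraries, in the list values was not tested. The genes called included Arg1, the arginase of alternatively activated macrophages (log2 10.33 ± 1.80, adjusted p = 0.0255), the cytokine Lif (4.67 ± 0.65, adjusted p = 0.0147), Socs3, which dampens cytokine signalling (2.99 ± 0.30, adjusted p = 0.00737), and the galectin Lgals1 (2.95 ± 0.39, adjusted p = 0.0124) at 3 D. Of 16 other transcription factors, Myc (3.21 ± 0.32, adjusted p = 0.00737), Junb (2.25 ± 0.35, adjusted p = 0.0194) and Sox4 (1.40 ± 0.29, adjusted p = 0.0417) were higher at 3 D. At 2 W Myc (2.02 ± 0.31, adjusted p = 0.029) and Junb (2.24 ± 0.35, adjusted p = 0.0308) were called again. Of 14 growth cone genes, Tubb6 (2.40 ± 0.30, adjusted p = 0.0114) and Stmn2 (2.22 ± 0.48, adjusted p = 0.0485) were higher at 3 D, and Nrn1 was lower at 2 W (-5.13 ± 0.59, adjusted p = 0.0153). The RGC marker sum in MON was also lowest at 2 W after crush, and its part in the Nrn1 value was not tested. No neuropeptide, galanin receptor or relative of the 7 genes was called.

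In UON after crush, edgeR called 0 of 12 tests, beside 0.014% of all tests. At an unadjusted p under 0.05 there were 2 of 12 (6.17% of all), and DESeq2 called 0 of 14 (0.942%). The 2 values were Ecel1 at 3 D and Atf3 at 2 W. Ecel1 was at 50.2 and 8.26 CPM at 3 D, both below naïve UON but far apart (-1.64 ± 0.64, adjusted p = 1), and at 88.2 and 33.2 CPM at 2 W, on either side of naïve. Atf3 was at 17.8 and 32.9 CPM at 3 D and at 76.3 and 70.1 CPM at 2 W, above both naïve libraries (1.46 ± 0.45, adjusted p = 0.49). The microglia and macrophage marker sum was 1003 and 828 CPM in naïve UON, 1008 and 1710 CPM at 3 D and 3206 and 2016 CPM at 2 W, and its part in the Atf3 level was not tested. Gap43 at 2 W was at 7.76 and 7.78 CPM, below both naïve libraries (-1.19 ± 0.55, adjusted p = 0.561), where the RGC marker sum was 56.1 and 34.3 CPM against 289 and 437 CPM in naïve UON. The part of the RGC markers in the Gap43 level was not tested. Of the regeneration lists, edgeR called 0 genes in 112 tests (0.014% of all). An unadjusted p under 0.05 was found in 25 (6.17%), and DESeq2 called 5 higher and 1 lower (0.942%). Jun was at 812 and 694 CPM at 3 D and 514 and 378 CPM at 2 W, against 514 and 531 CPM in naïve UON (0.53 ± 0.31 and -0.26 ± 0.31).

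The crush responses of MON and UON were compared directly, by the interaction of segment and time. No gene of the 7 was called in 14 tests, beside 0.006% of all tests, 1 of 14 had an unadjusted p under 0.05 (8.92% of all) and DESeq2 called 0 of 14 (1.04%). The largest difference with an error under 1 was that of Atf3 at 3 D, 1.76 ± 0.63 higher in MON (adjusted p = 0.586). The Atf3 response, called in MON and not in UON, is therefore not shown to differ between the segments.

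**Figure D3:**
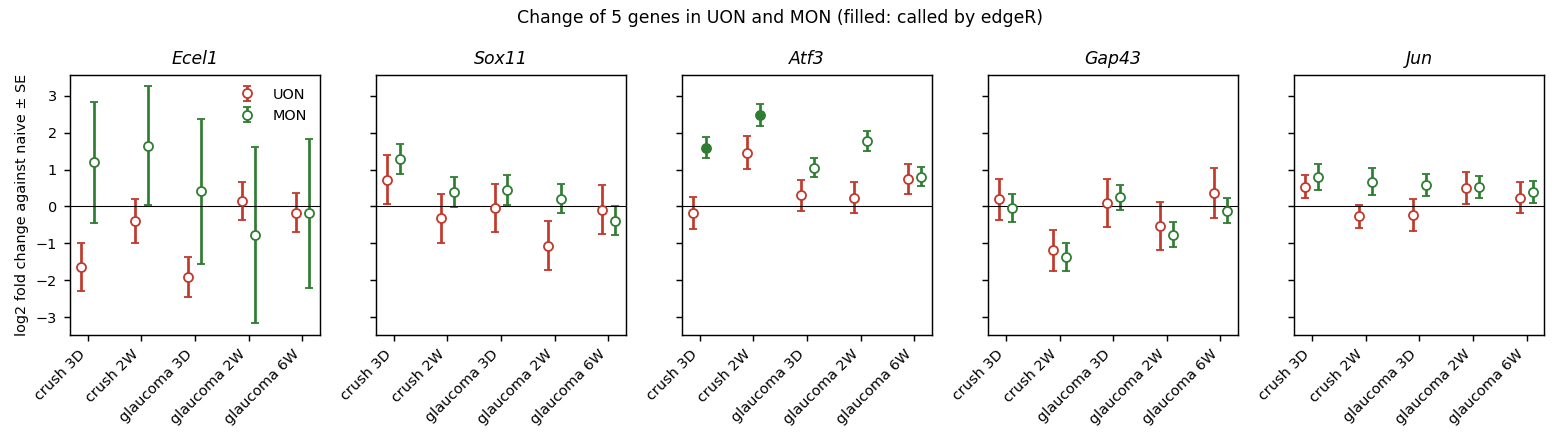
Log2 fold change against naïve (y axis, points with SE, n = 2 pools per group) of 5 genes in UON (red) and MON (green) by group (x axis); filled points were called by edgeR. The 2 filled points are Atf3 in MON at 3 D (1.59) and 2 W (2.47) after crush, and Ecel1 in MON has the widest errors.

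In glaucoma, MON gave 0 calls in 21 tests by edgeR, beside 0% of all tests. At an unadjusted p under 0.05 there were 3 of 21 (7.26% of all), which were Atf3 at all 3 times. Atf3 was at 40.5 and 30.6 CPM at 3 D, 72.1 and 44.4 CPM at 2 W and 29 and 30.7 CPM at 6 W, above both naïve libraries at each time. The microglia and macrophage marker sum was 2416 and 2948 CPM, 3818 and 2635 CPM, and 2378 and 2193 CPM at these times, again above naïve. Its part in the Atf3 level was not tested. The Atf3 log2 fold changes were 1.05 ± 0.26, 1.77 ± 0.26 and 0.81 ± 0.26, with adjusted p of 0.408, 0.232 and 0.849. DESeq2 called 5 of 21 (0.816% of the genes it fitted): Atf3 at 3 D and 2 W, and Sprr1a at all 3 times. The DESeq2 values of Sprr1a rest on a naïve group at 0 and on 1 library at each time, which at 3 D held 4 counts, below the floor of 12. Gap43 was at 46.8 and 92.9 CPM, 38 and 26.9 CPM, and 43 and 63.9 CPM at the 3 times, with both pools below naïve at 2 W (-0.76 ± 0.34, adjusted p = 0.59) and the female pool alone below it at 3 D and 6 W. Jun (354 to 492 CPM) and Sox11 (4.55 to 12.4 CPM) had no value called by either tool. The male 2 W and the female 6 W library held the highest surface epithelium marker sums in MON, as given below. The part of that tissue in the 2 W and 6 W values of these genes was not tested.

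In UON in glaucoma, edgeR called 0 of 15 tests, beside 0% of all tests. 1 of 15 had an unadjusted p under 0.05 (3.15% of all), and DESeq2 called 1 of 21 (0.198%), both Ecel1 at 3 D. Ecel1 was then at 9.41 and 26.8 CPM, below both naïve UON libraries (-1.91 ± 0.55, edgeR's adjusted p = 1, DESeq2's adjusted p = 0.0494), and at 83.5 and 49 CPM at 2 W and 34.3 and 88.6 CPM at 6 W, on either side of naïve. At 3 D Ecel1 was thus below naïve UON in both models, from pools of different mice, against shared naïve libraries. Jun ranged from 338 to 911 CPM, Sox11 from 1.42 to 5.45 CPM and Gap43 from 8.51 to 39.7 CPM. Atf3 was at 15.4 and 64 CPM at 3 D, 27.4 and 32 CPM at 2 W and 29.6 and 69.6 CPM at 6 W. These Atf3 levels overlapped those of naïve UON (15.5 and 45.9 CPM). Neither tool called a value of Jun, Sox11, Gap43 or Atf3. Gal, and Sprr1a at 3 D and 6 W, had no DESeq2 adjusted p here and could not be called. EdgeR called no regeneration list gene in glaucoma in 174 tests in UON and 183 in MON. Of these, 13 and 34 had an unadjusted p under 0.05 (3.15% and 7.26% of all). DESeq2 called 2 higher in UON (0.198% of the genes it fitted) and 10 higher and 1 lower in MON (0.816%).

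The direct comparison of crush with glaucoma at matched times called no gene of the 7. In UON it was 0 of 12 tests (0.0209% of all tests), 1 of 12 at an unadjusted p under 0.05 (5.65%) and 0 of 14 by DESeq2 (0.639%). In MON it was 0 of 14 (0.0323%), 1 of 14 (8.93%) and 0 of 14 by DESeq2 (1.1%). The value with an unadjusted p under 0.05 was Atf3 at 2 W in both segments, higher after crush by 1.36 ± 0.47 in UON (adjusted p = 0.419) and 0.67 ± 0.25 in MON (adjusted p = 0.555). Between MON and UON, the glaucoma response differed in 0 of 21 tests (0% of all tests). It differed in 1 of 21 at an unadjusted p under 0.05 (5.04%), and in 0 of 21 by DESeq2 (0.126%). That 1 value was Atf3 at 2 W, 1.83 ± 0.81 higher in MON (edgeR's adjusted p = 0.777).

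Sprr1a in the nerve stood apart from the retina. In UON it had 0 to 27 counts per library and 8 of 12 libraries were at 0. In MON it had 0 to 4 counts in 10 of 12 libraries, 30 counts (0.706 CPM) in the male pool at 2 W of glaucoma and 546 counts (12.9 CPM) in the female pool at 6 W. Those 2 libraries also held the highest sums of 16 surface epithelium markers, 2792 and 3990 CPM, with 0 of 16 genes at 0, against 10.8 to 96.4 CPM in the other 10 MON libraries. The keratins Krt5 (201 and 216 CPM) and Krt13 (183 and 249 CPM) were alike in both, and Krt14 (44.5 and 1088 CPM) and Krt16 (0.894 and 73.2 CPM) were higher in the 6 W library. Krt16 was also the gene whose level followed Sprr1a most closely over the 24 nerve libraries (r = 0.802 after centring by segment). In the retina the same marker sum was 3.09 to 30 CPM and Krt16 was at 0 in all 12 libraries, including the 8 with Sprr1a counts. The part of surface epithelium in the MON values was not tested.

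**Figure D4:**
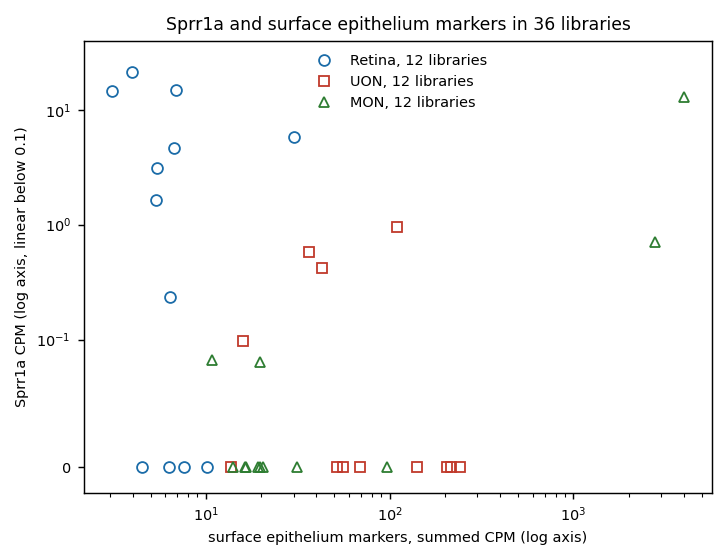
Sprr1a level in CPM (y axis, log above 0.1 and linear below) against the summed CPM of 16 surface epithelium markers (x axis, log) in 36 libraries, with retina as circles, UON as squares and MON as triangles. Retina libraries reach 21.5 CPM of Sprr1a at marker sums of 3.09 to 30 CPM, and the 2 MON libraries at 2792 and 3990 CPM lie at 0.706 and 12.9 CPM.

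The other genes most like the members in the nerve differed from those in the retina. Over the 24 nerve libraries, centred by segment and among 17653 genes, Atf3 was closest to Entpd1 (r = 0.83), an ectonucleotidase of microglia and vessels, and to the adhesion molecule Icam1 (0.823). Gap43 was closest to Hpca (0.816) and Rbpms2 (0.81), the latter an RGC marker, and Jun to the immediate early gene Dusp1 (0.785) and to Klf11 (0.752). Ecel1 was closest to Canx (0.823) and Adipor1 (0.8), Sox11 to Sv2c (0.747) and B4galt5 (0.726), and Gal to Hnrnpab (0.711) and Polh (0.688). These are descriptions over libraries that share groups, depth and pools.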

How the data were processed

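Total RNA of retina, UON and MON was pooled by sex (2 mice a pool), and 36 libraries were sequenced as pairs of 150 base reads with an ultra-low input kit. Per the labels, the authors used FastQC, HISAT2 2.2.1 and StringTie 1.3.0 on GRCm38. The authors made the deposited estimated counts with StringTie's count script, as whole numbers without normalization. The deposited FPKM are the authors' StringTie values per transcript length and library size. The deposited coverage, the mean read depth per base, served only to see that 1 count stands for 75 bases, so that a read pair adds 4 counts. In some files a few FPKM and coverage values lay just below 0, and such FPKM were set to 0. Library totals, 16.2 to 78.1 M counts, set the precision of low genes.

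The members and gene lists were chosen with earlier results of these data known. CPM used TMM factors over 36 libraries. Tests used edgeR 4.0.16 in R 4.3.3 (TMM, filterByExpr with minimum count 10 and minimum total 15, quasi-likelihood test with group and sex, Benjamini-Hochberg over all genes tested), within each tissue and model, across both segments for interactions, and over the 6 naïve libraries of the 3 tissues for UON against MON. Genes with a log2 fold change beyond 1 and an adjusted p under 0.05 were called. The study's own differential test was DESeq2 with time point and sex at these limits. DESeq2, the alternative here, is thus the tool the study used. The SE printed for edgeR values is an approximation, the absolute log2 fold change divided by the square root of the test's F statistic. Gal was not tested in UON, and Sprr1a failed the filter in MON after crush, UON in glaucoma and the naïve nerve. DESeq2 gave no adjusted p for Gal in UON, for Gal and Sprr1a in the crush interaction, or for some other low tests in the nerve. These could not be called but are counted among its tests. EdgeR's interaction values of Sprr1a, which had no estimable error, are counted in the same way. Alternatives were DESeq2 1.42.0 on all genes with a count, other size factors, no filter, no sex term, each library left out, all libraries of a tissue in 1 fit and a replicate block. The naïve tissues came from the same mice per the study, so pools of 1 sex and group were taken to pair UON with MON. P-values measure only the spread between pools. The tests were also run on simulated counts with 200 genes changed by 3 on the log2 scale. EdgeR recovered 157 of 200 (19988 genes, 2 false calls) at 3 D after crush in MON. It recovered 175 of 200 (23301 genes, 3 false calls) at 3 D of glaucoma in retina and 100 of 200 (25011 genes, 0 false calls) in the interaction at 3 D after crush. Each simulated gene had the spread fitted for genes of its level, 1 mean across libraries apart from the change, and no sex effect. Changed genes were drawn from those expected above 10 counts in every library. The shares therefore do not hold for genes with wider spread or lower counts.

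Named genes were the 7 members, up to 4 genes per list and comparison with the largest called change, and the 2 genes closest to each member over retina and over nerve libraries. The marker lists given here covered RGCs, photoreceptors, mature oligodendrocytes, microglia and macrophages, and surface epithelium. Lists for astrocytes, oligodendrocyte precursors, Schwann cells, fibroblasts and skeletal muscle were summed too but are not given. The part of those cell types in the differences between UON and MON was not tested. Outside this rule, Junos, Sprr1b, Sprr3, Krt5, Krt13 and Krt14 were named after their values were seen. Ddit3 had 2 identifiers, of which 1 had under 10 counts in every library.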

Additional observations from a re-analysis of the deposited data

Results flagged for a closer look

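In 4 pairs of values both injured libraries lay above both naïve libraries in the retina and below both in UON. Of all genes that passed the filter in both tissues, 3.34% and 5.12% were so arranged at 3 D and 2 W after crush and 3.18% and 2.52% at 3 D and 2 W of glaucoma. The differences between the tissues were not tested, and the retina crush contrast had served to choose the genes. At 3 D after crush, Ecel1 had a mean of 53.6 CPM in the retina, above naïve, and of 29.2 CPM in UON, below naïve. At 3 D of glaucoma it had 26 CPM in the retina, above naïve, and 18.1 CPM in UON, below naïve. At 2 W after crush, Jun had 88.6 CPM in the retina, above naïve, and 446 CPM in UON, where the higher library and the lower naïve one were equal to 3 digits (514 CPM). At 2 W of glaucoma, Sox11 had 3.91 CPM in the retina, above naïve, and 1.84 CPM in UON, below naïve.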

How the results depend on the processing

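With n = 2 pools per group, precision is limited. Calls of the 7 genes were 2 in MON after crush, and 0 to 4 with 1 library left out (4 without the female 2 W library, 0 without either naïve library). They were 0 in retina in glaucoma, against 3 by DESeq2, 2 without the low count filter and 0 to 2 with 1 library left out (2 without either 6 W library). They were 0 in MON in glaucoma, against 5 by DESeq2, 1 without the filter and 0 to 1 with 1 library left out (Sprr1a without the female 2 W library), and 0 in UON in glaucoma, against 1 by DESeq2. Naïve UON against MON gave 2 calls, and 2 to 3 with 1 library left out: Atf3 was called without the female UON library (log2 1.41) and Jun without the female MON library (1.34). The count of retinal values beyond a log2 of 1 after crush was 9, and 8 to 9 with 1 library left out (8 without the female 2 W library). Counts of 0 in UON after crush, in crush against glaucoma and in both differences between MON and UON stayed at 0 in every alternative run, also with the replicate block that pairs the 2 segments of each pool, which gave 0 calls for both models and changed no call. In single genes there were 2196 alternative values in all, of which 26 gained a call and 5 lost one. The total includes the values of the retina after crush, which were not tested and so had no call to gain or lose. Of those, 17 moved by more than the SE of the main fit. The cause of these changes was not tested. The fitted fold change of Sprr1a, at 0 in naïve tissue, depends on the prior count.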
